A study of Caenorhabditis elegans with 8 samples.

Results

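In embryos lacking seip-1, the seipin gene of Caenorhabditis elegans, 179 genes known only by a sequence name gave a signal that was detected in no other group. They were chosen by detection on the arrays described here. On the probe with the highest mean signal over the 8 arrays, the gene had to be well above background on both seip-1 KO embryo arrays and on none of the 6 other arrays. The scanner software sets this flag for each spot against the local background, and a gene is called detected below where the flag is set. The 179 genes were 2.11% of 8469 genes with a sequence name only, out of 20008 genes with a probe. Since the choice used the contrast of KO with WT embryos, the values below describe that contrast and carry no test of it.

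The study measured total RNA on 8 Cy3-labelled, single-colour Agilent arrays with 43603 probes each, in 4 groups of 2 arrays: seip-1 KO embryos, WT (N2) embryos, seip-1 KO young adults and WT (N2) young adults. Adults were collected 52 h after L1, and the embryos were released from gravid adults of that same age. The labels name neither the seip-1 allele nor the number of independent cultures, so the spread between the 2 arrays of a group may be technical. The number of arrays limits the precision of every value, and n = 2 in each group.

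Seipin is a protein of the endoplasmic reticulum that acts where lipid droplets form, and in the worm it is also known for a part in building the permeability barrier of the eggshell. A sequence name such as F49C12.4 gives the genomic clone on which the gene was found and a running number. It says where a gene was first mapped and nothing of what its product does. No function is therefore given here for any of the 179 genes.

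The check of the labels came first. The single probe of seip-1 (R01B10.6, chromosome V) read 5.19 and 6.72 intensity units in KO embryos, against 3292 and 3871 units in WT embryos. It read 5.74 and 6.97 units in KO adults, against 3120 and 2966 units in WT adults. It was detected on no KO array and on every WT array.

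The arrays differed before scaling in ways that run with the groups. The median probe read 265 and 214 units in KO embryos, against 74.7 and 77.4 units in WT embryos, and 75.5% and 71.9% of probes were detected in KO embryos, against 65.7% and 66.6% in WT embryos. In adults the median probe read between 218 and 276 units over the 4 arrays. The embryo arrays shared a slide and the adult arrays another, so slide and stage cannot be told apart. The part of overall brightness in the count of 179 was not tested.

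Marker genes of tissues and stages also moved with genotype in embryos, and their part in the detection of the 179 genes was not tested. Levels here are summed signals relative to the 75th percentile of the array. The 10 body muscle genes summed to 187 and 154 in KO embryos, against 48.9 and 45.0 in WT embryos, and 10 of 10 were higher on both KO arrays than on both WT arrays. The 9 intestine genes summed to 102 and 76.9 in KO embryos, against 16.03 and 15.8 in WT embryos, with 8 of 9 higher and 1 lower. Genes of both lists encode proteins or regulators of differentiated cells.

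The 6 pharynx genes summed to 30.1 and 23.3 in KO embryos, against 9.46 and 8.25 in WT embryos, with 6 of 6 higher. The 10 epidermal and larval cuticle genes summed to 198 and 206 in KO embryos, against 98.2 and 93.1 in WT embryos, with 7 of 10 higher and 2 lower. The 10 neuronal genes summed to 38.9 and 33.6 in KO embryos, against 29.4 and 31.6 in WT embryos, with 8 of 10 higher and 2 lower. Most of the WT sum came from snb-1, 1 of the 2 lower genes, at 30619 and 35524 units in WT embryos. The 8 higher genes differed by 1.69 (unc-64) to 3.20 (che-3) on the log2 scale. Most of the epidermal sum came likewise from a single bright gene, sqt-3. The sums of these 3 lists thus lay on the same side as muscle and intestine.

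The opposite side held the 13 oocyte and germline genes, which summed to 31.1 and 37.4 in KO embryos, against 158 and 191 in WT embryos, with 13 of 13 lower. It also held the 10 early zygotic genes, which summed to 1.92 and 2.60 in KO embryos, against 13.4 and 14.0 in WT embryos, with 10 of 10 lower. Early zygotic genes are among the first that the embryo itself transcribes. In bulk RNA, fewer cells of a type and less RNA per cell cannot be told apart.

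Lists that mark adults were far lower in both kinds of embryo than in adults. The 4 adult cuticle genes summed to 0.0400 and 0.0323 in KO embryos, against 0.0445 and 0.0360 in WT embryos, while the adult arrays lay between 163 and 191. The 5 yolk genes summed to 0.402 and 0.330 in KO embryos, against 0.127 and 0.126 in WT embryos, with 474 to 622 in adults. The 8 sperm genes summed to 0.181 and 0.186 in KO embryos, against 0.196 and 0.128 in WT embryos, with 75.8 to 93.6 in adults. Both arrays of KO embryos detected 1 of the 4 cuticle genes, 4 of the 5 yolk genes and 4 of the 8 sperm genes, against 1, 4 and 3 in WT embryos. The genes of these lists that no embryo array detected were the adult collagen gene col-19, bli-1, bli-2, vit-6, spe-11, spe-38, msp-142 and ssp-19. Both kinds of embryo detected 10 of 10 early zygotic genes, against 1 of 10, end-3, on both arrays of KO and of WT adults. Single adult arrays also detected med-1 (249 units on KO adult array 1) and hlh-27 (38.1 units on WT adult array 2).

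Most of the 8469 genes with a sequence name only were not restricted in this way. In KO embryos 6037 of them, or 71.3%, were detected on both arrays, and 4581 were detected on all 8 arrays. Of the 6037 genes, 665 were detected on neither WT embryo array. The 665 genes split by what the adult arrays showed. Adults detected 398 of them on all 4 arrays, which is 59.8%, and 179 of them on none, which is 26.9%. The remaining genes were detected on 1, 2 or 3 adult arrays, in 40, 21 and 27 cases.

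The same search was made for the other groups. Detection on both arrays of WT embryos and no other array held for 38 genes with a sequence name only, or 0.449%. KO adults alone had 6 such genes and WT adults alone had 8. For genes with a symbol the same pattern was found in KO embryos for 224 of 11537, or 1.94%, and in WT embryos for 57. Over all 20008 genes 403, or 2.01%, were detected in KO embryos alone, so the share among genes without a symbol was close to that over all genes.

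**Figure D1:**
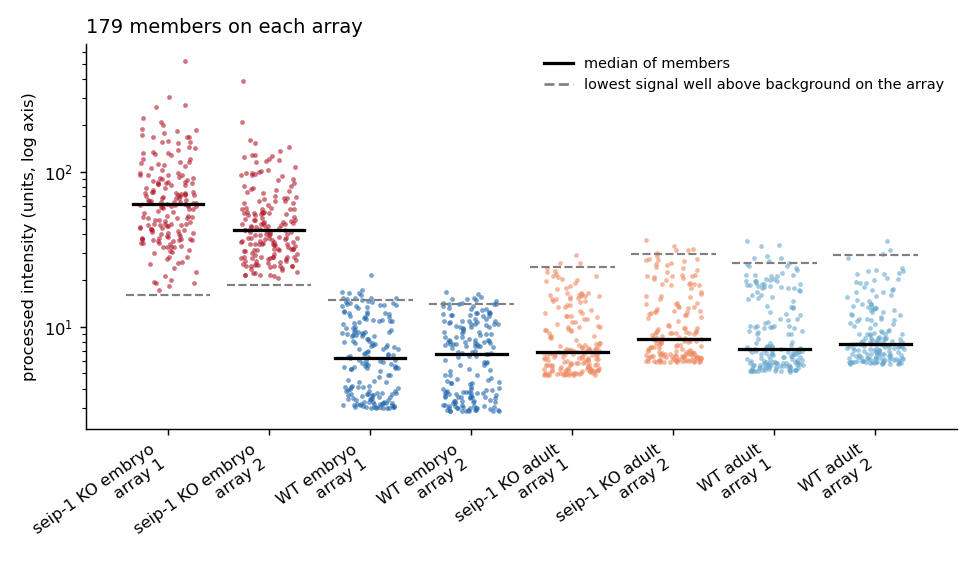
Processed intensity, in units on a log axis, of the 179 genes on each of the 8 arrays, 1 point per gene, with the median of the genes as a solid line and the lowest signal flagged well above background on that array as a dashed line. The medians are 62.0 and 42.0 units on the KO embryo arrays, against 6.33 and 6.69 units on the WT embryo arrays and 6.88 to 8.35 units on the adult arrays.

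The 179 genes were dim where they were detected. Bright and dim describe the spots here, since the signals of different probes do not compare amounts of RNA. Their processed intensity ran from 17.4 through a median of 62.0 to 518 units on KO embryo array 1, and from 20.6 through 42.0 to 389 units on KO embryo array 2. On the WT embryo arrays it ran from 2.99 through 6.33 to 21.6 units and from 2.84 through 6.69 to 16.9 units. The highest WT value thus lay above the lowest KO values, but these came from different genes. The highest WT value was that of Y71G12B.18, named after its values were seen, which read 155.5 and 96.2 units in KO embryos. The ranges of the groups overlapped across genes, as the plot of the genes on each array shows.

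In adults the medians were 6.88 and 8.35 units on the KO arrays, against 7.21 and 7.74 units on the WT arrays, with single genes reaching 36.5 units in KO adults and 36.1 units in WT adults. The lowest signal of any probe called detected differed by array. It was 16.1 and 18.8 units in KO embryos, 14.9 and 14.1 units in WT embryos, 24.5 and 29.8 units in KO adults, and 25.8 and 29.3 units in WT adults. A dim gene could therefore be called detected in embryos at a signal that no adult array would call. In KO embryos the dimmer of both arrays was above the highest adult limit of 29.8 units for 134 of the 179 genes. A signal above that limit was not always called, as single genes of the 179 read up to 36.5 units in KO adults without the flag. With signals scaled to the 75th percentile, it was above the highest limit of any array for 148.

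By level, 17 genes read over 100 units on both KO embryo arrays, 46 read between 50 and 100 units on the dimmer array, and 116 read up to 50 units there. Of 15044 genes detected on both KO embryo arrays, the median of the 179 was brighter than 6.78%. All but the brightest, that is 178 genes, lay in the dimmest 25%. The set was thus made up of genes near the lower end of what the KO embryo arrays detected.

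Not being flagged well above background does not mean that a spot read nothing. The software sets a second, weaker flag where a spot is positive and differs from its background. This weaker flag was set for 121 and 124 of the 179 genes on the WT embryo arrays, and for 101 of them on both. It was set on the KO adult arrays for 89 and 85 genes, and on the WT adult arrays for 89 and 73. On neither WT embryo array was it set for 35 genes, and on no adult array for 52.

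The weaker flag was set on none of the 6 other arrays for 14 of the 179 genes. The brightest of these was T05B4.9 (chromosome V), named after its values were seen, at 153 and 77.5 units in KO embryos, against 3.11 and 2.98 units in WT embryos. It read 5.13 and 6.16 units in KO adults, against 5.41 and 6.25 units in WT adults. T05B4.9 was thus at the floor of every array outside KO embryos.

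Folds against a group at background are given as lower bounds. The mean KO embryo level was set against the mean of the other group, in which each array contributed the lowest signal detected on it or the gene's own signal, whichever was higher. Both were scaled to the 75th percentile of the array first, and each bound holds under that scaling alone. No bounds were computed with the other scalings or the background correction given below, each of which lowered the median measured difference. The bound over WT embryos had a median of at least 2.26-fold over the 179 genes and was over 2-fold for 105. The largest was at least 20.4-fold, and 3 genes had a bound under 1 and are given no fold.

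The median of the bounds was at least 2.13-fold over KO adults and at least 2.05-fold over WT adults. The measured difference used the processed WT signals, also for the 35 genes where neither WT embryo array set the weaker flag. Such signals did not differ from their background, so the difference of those genes is no measured fold. The measured difference had a median of 2.56 on the log2 scale, beside a median of -0.11 over all 20008 genes. That value depended on the scaling and on the background correction. It was 1.51 with arrays scaled to their median, where the median of all genes was -1.16, and 2.06 with quantile normalization, where the median of all genes was -0.07. It was 0.10 after a normexp background correction with an offset of 50, where the median of all genes was -0.38. That offset adds to every spot about as many units as these genes read.

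The 10 brightest genes in KO embryos are described one by one. F49C12.4 (chromosome IV) was the brightest, at 518 and 389 units in KO embryos, against 7.24 and 13.04 units in WT embryos. It read 7.504 and 9.13 units in KO adults, against 7.90 and 8.98 units in WT adults. Both KO embryo arrays stood far above the 6 others, which lay together at background. The bound was at least 20.4-fold over WT embryos, at least 19.3-fold over KO adults and at least 18.7-fold over WT adults. F49C12.4 was also the only one of the 179 above the dimmest 25% of detected genes, being brighter than 32.2% of them.

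F49D11.4 (chromosome I) read 272 and 210.5 units in KO embryos, against 7.20 and 6.50 units in WT embryos. In adults it read 5.50 and 6.68 units in the KO, against 5.86 and 6.64 units in WT. Its arrays outside KO embryos differed little, but no adult array set the weaker flag, so the adult values were at background. The bound was at least 10.9-fold over WT embryos. T26E4.2 (chromosome V) read 304 and 154 units in KO embryos, against 13.7 and 15.0 units in WT embryos. It read 5.81 and 24.5 units in KO adults, against 27.9 and 16.9 units in WT adults. Its adult arrays were scattered, with the highest just over the lowest signal detected there, and the bound over WT embryos was at least 9.53-fold.

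K10G6.5 (chromosome II) read 264 and 144 units in KO embryos, against 9.89 and 13.6 units in WT embryos. It read 9.42 and 9.34 units in KO adults, against 16.1 and 11.9 units in WT adults, and the bound over WT embryos was at least 8.87-fold. Y17G7B.22 (chromosome II) read 223 and 161 units in KO embryos, against 10.73 and 12.1 units in WT embryos. For both genes the KO embryo arrays were clear of the 6 others. Y17G7B.22 read 5.66 and 6.89 units in KO adults, against 20.2 and 12.1 units in WT adults, with a bound over WT embryos of at least 8.59-fold. These 5 genes also had the 5 largest bounds over WT embryos.

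F49C12.2 (chromosome IV) read 211 and 137 units in KO embryos, against 3.64 and 3.602 units in WT embryos. F07C4.10 (chromosome V) read 202 and 129.5 units in KO embryos, against 7.96 and 8.38 units in WT embryos. C13A2.10 (chromosome V) read 190.2 and 125 units in KO embryos, against 9.27 and 8.63 units in WT embryos. In these 3 genes the WT embryo arrays lay close together and KO embryo array 1 was brighter than array 2. For F49C12.2 neither WT embryo array set the weaker flag, so both of its WT values were at background. Their bounds over WT embryos were at least 7.72-fold, at least 7.34-fold and at least 7.00-fold.

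C18H9.1 (chromosome II) read 174 and 129 units in KO embryos, against 8.89 and 8.22 units in WT embryos. C03A3.3 (chromosome X) read 187 and 119.9 units in KO embryos, against 14.4 and 9.80 units in WT embryos. C03A3.3 had the highest adult signals of these last 5 genes, at 16.3 and 23.4 units in KO adults, against 18.9 and 17.5 units in WT adults. The bounds over WT embryos were at least 6.81-fold for C18H9.1 and at least 6.80-fold for C03A3.3. In each of the 10 genes KO embryo array 1 read higher than array 2, and both read higher than every other array.

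**Figure D2:**
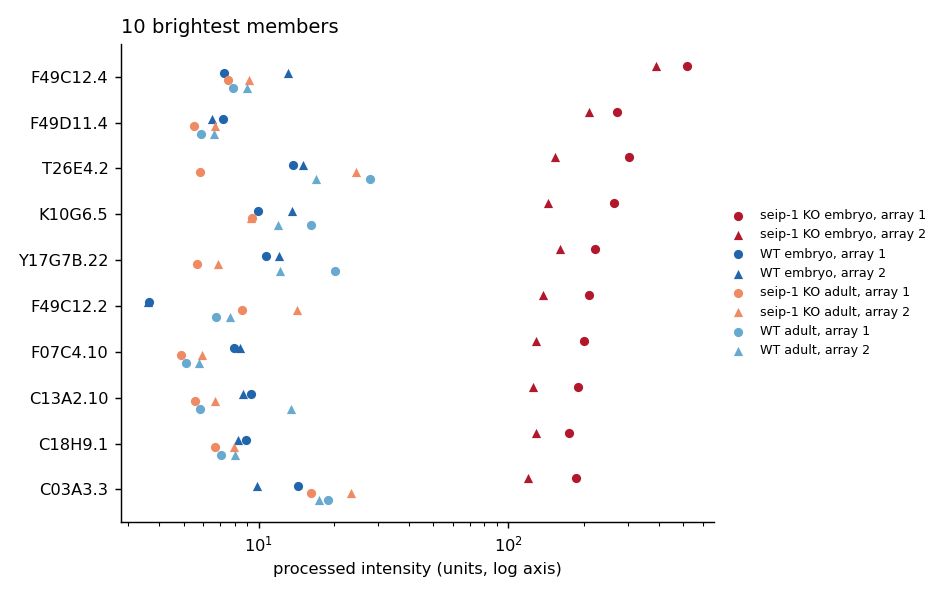
Processed intensity, in units on a log axis, of the 10 brightest genes on the 8 arrays, with circles for array 1 and triangles for array 2 of each group. The KO embryo points lie between 119.9 units (C03A3.3) and 518 units (F49C12.4), and the highest point of any other array is 27.9 units (T26E4.2 in WT adults).

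The dim edge of the set was drawn by the flags. The 5 dimmest genes inside it were F59F5.4, F56H6.7, E03H4.3, C36C5.4 and B0244.7. F59F5.4 read 26.4 and 21.6 units in KO embryos, against 2.996 and 2.86 units in WT embryos. B0244.7 read 19.4 and 22.4 units in KO embryos, against 3.11 and 5.65 units in WT embryos, and its adult arrays read 15.9 to 21.2 units. In raw units B0244.7 was thus nearly as bright in adults as in KO embryos, but under the adult limits. E03H4.3 read 19.2 and 23.9 units in KO embryos, against 3.43 and 3.30 units in WT embryos.

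Just outside lay 214 genes with a sequence name only that missed the pattern by a single array, and some were far brighter. ZK1225.1 read 284 and 250.3 units in KO embryos, against 20.8 and 23.1 units in WT embryos, and WT embryo array 2 flagged it as detected. F10A3.11 read 285 and 232 units in KO embryos, against 18.6 and 16.2 units in WT embryos, with the flag set on WT embryo array 1. C27D6.1 read 282 and 202 units in KO embryos, against 15.5 and 18.7 units in WT embryos. C27D6.1, like C03G6.6, was flagged on WT embryo array 2. C03G6.6 read 247 and 206 units in KO embryos, against 11.9 and 18.2 units in WT embryos.

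T06D8.2 missed through an adult array. It read 329 and 166 units in KO embryos, against 15.1 and 14.0 units in WT embryos, and 35.5 units on WT adult array 2. These 5 genes lay in the range of the 10 brightest genes inside. Of the 214 near misses, 114 failed on KO embryo array 2 and 24 on KO embryo array 1. WT embryo arrays 1 and 2 accounted for 14 and 22, and single adult arrays for 6 to 12 each. Without KO embryo array 2 the rule found 293 genes, against 179 with it.

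The KO embryo arrays ranked the 179 genes alike but not at the same level. Pearson's r between their log2 signals was 0.842 over the 179 genes, which share both arrays and so are not independent. Relative to the 75th percentile, 157 of the 179 genes, or 87.7%, were higher on array 1, with a median difference of 0.36 on the log2 scale. The median SD of a gene between both arrays was 0.28. Among all 15044 genes detected on both KO embryo arrays, 47.9% were higher on array 1, with a median difference of -0.02.

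The lean towards array 1 was shared by other genes that were higher in KO than in WT embryos. Of the 665 genes with a sequence name only that were detected on both KO and neither WT embryo array, 86.6% were higher on array 1. Of the 6815 genes that the linear model called higher in KO embryos, 85.4% were. The share among the 179 genes was close to both of these.

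Only 11 of the 179 genes differed by over 2-fold between the KO embryo arrays, and these were named after their values were seen where they are given here. W03G9.9 (chromosome I) read 18.4 and 107.1 units in KO embryos, against 8.86 and 3.02 units in WT embryos. F59A6.3 (chromosome II) read 17.4 and 89.4 units in KO embryos, against 3.13 and 14.1 units in WT embryos. These were the 2 of the 11 that were brighter on array 2. On array 1 each lay just over the limit of 16.1 units. M01B2.8 (chromosome V) was brighter on array 1, at 169 and 54.9 units in KO embryos, against 4.89 and 10.4 units in WT embryos.

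**Figure D3:**
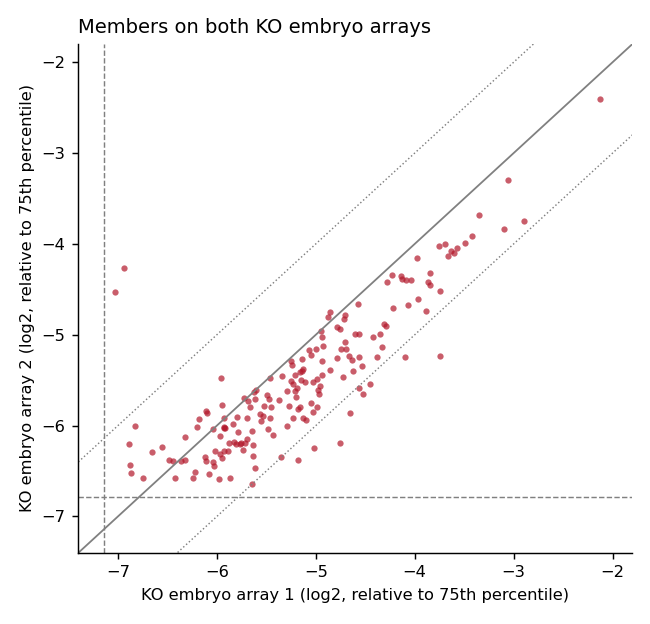
Level of the 179 genes on KO embryo array 1 (horizontal) and array 2 (vertical), each as log2 signal relative to the 75th percentile of the array, with equality as a solid line, 2-fold differences as dotted lines and the lowest signal detected on each array as dashed lines. Most points lie below the line of equality, as 157 of the 179 genes were higher on array 1, and the 2 points far above it are W03G9.9 and F59A6.3.

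In a linear model over all 8 arrays (limma, Benjamini-Hochberg adjusted p under 0.05), 169 of the 179 genes were called higher in KO than in WT embryos, beside 44.3% of the 15380 genes tested (84.3% were called in either direction). Over all genes 6815 were called higher and 6147 lower, and with arrays scaled to their median 4912 were called higher and 8285 lower. Because detection on these same arrays chose the genes, nothing is read from that count. Both KO embryo arrays were above the 6 others, on the scaled level, for 177 of the 179 genes, beside 28.8% of genes detected on both KO embryo arrays, and this too follows from the choice.

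The exceptions, named after their values were seen, were F59A6.3 and Y53F4B.20. Y53F4B.20 (chromosome II) read 22.5 and 26.3 units in KO embryos, against 11.8 and 9.26 units in WT embryos. It read 25.7 and 6.75 units in KO adults, against 5.87 and 6.61 units in WT adults. KO adult array 1 was thus as bright as KO embryos for this gene. F20B6.5 (chromosome X), which had the largest adjusted p of the 179 (0.595 in limma), read 27.5 and 24.6 units in KO embryos, against 15.2 and 16.2 units in WT embryos. Its measured difference was 0.13 on the log2 scale once the arrays were scaled.

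Probes not used by the rule gave a second reading for some genes. The array held 1 probe for 140 of the 179 genes and 2 to 6 for the other 39, which had 80 further probes in all. Of these 80, 41 showed the same pattern of flags. A total of 44 were detected on both KO embryo arrays, 18 on a single KO embryo array and 18 on no array. In 15 of the 39 genes every probe showed the pattern.

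Further probes of a gene share the sample and often part of the transcript, so they are no separate replicates. Levels of different probes cannot be set against each other, so only the flags are compared. Every probe of Y17G7B.22, K10G6.5 and C13A2.10 was detected on both KO embryo arrays. The further probes of Y17G7B.22 read 324 and 239.7 units and 149.7 and 105 units in KO embryos. Those of K10G6.5 read 105 and 52.4 units and 116 and 66.0 units, and that of C13A2.10 read 108 and 63.2 units in KO embryos.

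In other genes 1 probe alone carried the detection. The rule's probe of T07D3.6, a pseudogene on chromosome II, read 86.6 and 72.7 units in KO embryos, against 10.04 and 3.68 units in WT embryos. Its other probe read 3.73 and 4.50 units in KO embryos, against 3.36 and 3.30 units in WT embryos. That other probe was detected on no array, so it gives no difference to compare. The same held for the 2 other probes of F23G4.1 and the 5 other probes of C16D9.3, none of which was detected on any array.

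The other probe of Y26D4A.18 was likewise detected on no array. F40F9.11, the last of the 5 genes whose probes were furthest apart, had 2 further probes that were detected on both KO embryo arrays and 2 that were detected on no array. Of these 5 genes, all but F40F9.11 thus rest on the probe of the rule alone. In 3 genes, named after their values were seen, a further probe was detected outside KO embryos. A probe of K01A12.2 read 57.0 and 24.9 units in KO embryos, against 3.20 and 3.04 units in WT embryos, but 54.5 and 208 units in KO adults, against 34.0 and 9.11 units in WT adults. A probe of C17F4.11 read 22.6 units and a probe of C45G9.14 read 24.9 units on WT embryo array 2, where both were called detected.

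**Figure D4:**
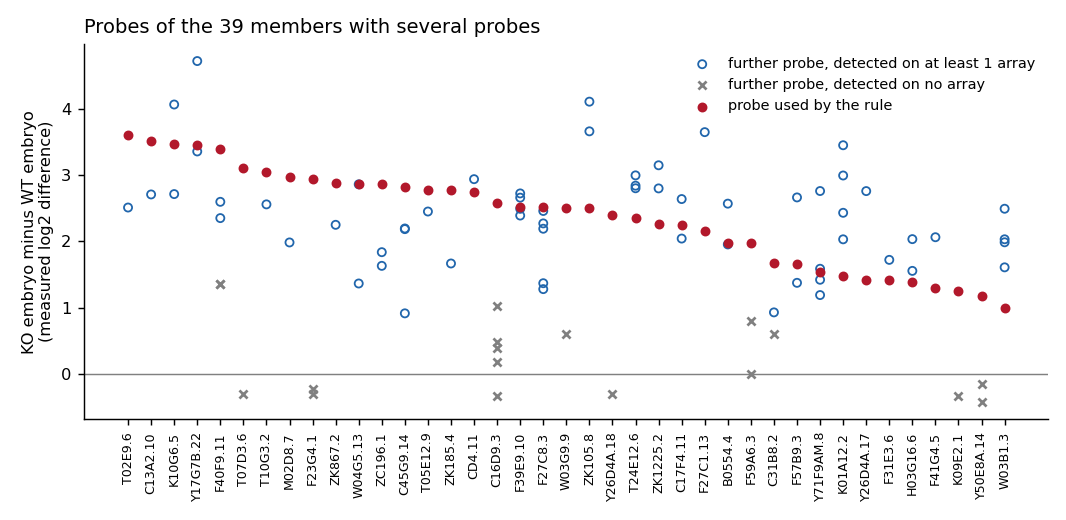
Measured difference of KO minus WT embryos, log2 of scaled signal, for every probe of the 39 genes with several probes, with filled points for the probe used by the rule and open points for further probes detected on at least 1 array. Crosses are the 18 further probes detected on no array, whose place reflects background and scaling, and they include every further probe of T07D3.6, F23G4.1, C16D9.3 and Y26D4A.18.

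The 179 genes lay on all 6 chromosomes but not in the proportions of all genes with a sequence name only. Positions are not printed, because the array design and the RefSeq table used for names (WBcel235) belong to different genome builds. Chromosome X held 42 of them, or 23.5%, beside 14.7% of the 8469 genes, so that 3.38% of the sequence-name genes of chromosome X were among the 179. Chromosome V held 50, or 27.9%, beside 24.2%, and chromosome I held 30, or 16.8%, beside 14.2%. Chromosomes III, II and IV held 12, 23 and 22 genes, or 6.70%, 12.8% and 12.3%, beside 12.2%, 17.6% and 17.1%. Related sets also lay on X, namely 9 of the 38 genes with a sequence name only that were detected in WT embryos alone. Of the 665 such genes detected on both KO and neither WT embryo array, 18.5% were on X. All these shares are a description of chosen genes and were not tested.

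Genes with a symbol and the same pattern were spread in a related way. They made up 2.92% of the genes with a symbol on chromosome V, 2.43% on X, 1.77% on I, 1.74% on IV, 1.13% on II and 0.969% on III. In both kinds of gene chromosome III had the lowest share. The highest was on X for genes with a sequence name only and on V for genes with a symbol.

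**Figure D5:**
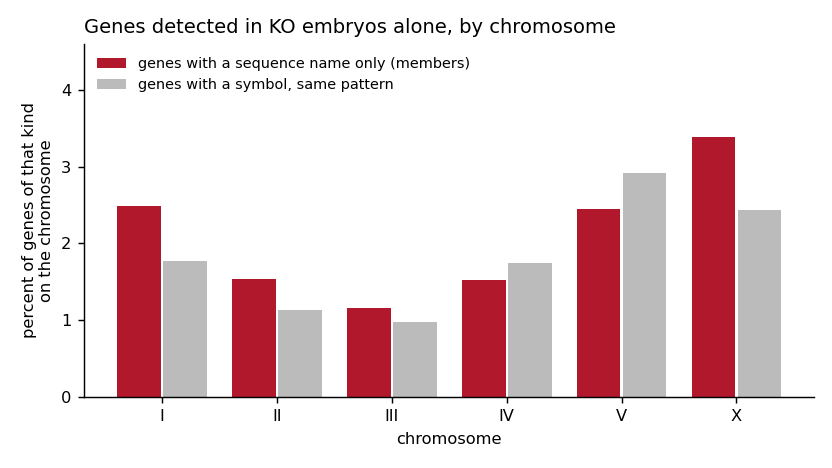
Percent of the genes on each chromosome that were detected in KO embryos alone, with dark bars for genes with a sequence name only and grey bars for genes with a symbol. The dark bars run from 1.16% on chromosome III to 3.38% on X, and the grey bars from 0.969% on III to 2.92% on V.

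By RefSeq's gene types, 156 of the 179 were protein-coding, or 87.2%, beside 87.5% of all genes with a sequence name only. A further 21 were pseudogenes, or 11.7%, beside 11.5%. One gene each was a long non-coding RNA and another non-coding RNA. The median span of the protein-coding genes was 1671 bp, beside 1791.5 bp for protein-coding genes with a sequence name only. The gene types of the 179 thus had nearly the same shares as among the genes they were drawn from, and no test of this was made.

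Both non-coding genes were named after their values were seen. F39E9.10, a long non-coding RNA on chromosome II, read 33.0 and 35.5 units in KO embryos, against 5.16 and 3.01 units in WT embryos. It read 5.21 and 6.36 units in KO adults, against 5.55 and 6.24 units in WT adults. C05B10.20, a non-coding RNA on chromosome IV, read 28.4 and 24.8 units in KO embryos, against 3.39 and 2.88 units in WT embryos. For both genes the arrays of KO embryos were alike and lay apart from the 6 others.

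Pseudogenes are copies of genes that no longer encode a full protein, and a probe for one may also bind the transcript of a related gene. The brightest of the 21 was T07D3.6, whose other probe was detected on no array. The next, named after its values were seen, was ZC196.1 (chromosome V), at 59.96 and 51.1 units in KO embryos, against 3.71 and 6.84 units in WT embryos. Its adult arrays read 10.05 and 18.7 units in the KO, against 20.4 and 31.3 units in WT. The adult arrays of ZC196.1 were thus raised over those of many of the 179 genes without being flagged.

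Several of the 179 genes lay side by side. Taking runs with up to 1 other gene between them, 15 genes formed 7 runs. By clone, the 179 genes came from 164 clones, and 11 clones held 2 or 3 of them each, 26 in all. The same counts are not given here for other genes, so whether the 179 lay closer together is left unjudged. The longest run was F49C12.2, F49C12.3 and F49C12.4 on chromosome IV. F49C12.3 read 61.5 and 39.96 units in KO embryos, against 3.54 and 3.39 units in WT embryos. It read 6.09 and 9.38 units in KO adults, against 6.21 and 14.8 units in WT adults. All 3 read higher on KO embryo array 1 than on array 2.

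C13A2.11 and C13A2.3 on chromosome V formed a second run, on the clone that also holds C13A2.10. C13A2.3 read 60.4 and 34.1 units in KO embryos, against 6.86 and 7.86 units in WT embryos. The pseudogene C13A2.11 read 42.6 and 26.9 units in KO embryos, against 3.39 and 3.26 units in WT embryos. Both again read higher on KO embryo array 1. F07G11.6 and F07G11.7, a pair of pseudogenes on chromosome V, formed another run. F07G11.7 read 36.4 and 46.3 units in KO embryos, against 12.5 and 13.2 units in WT embryos, and F07G11.6 read 32.9 and 24.6 units in KO embryos, against 12.1 and 11.3 units in WT embryos. This pair lay nearer to detection in WT embryos than the other runs described here.

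The genes next to the 179 were read off the same annotation, and any of them named here was chosen after its values were seen. The array held 308 of the 338 flanking genes. Both KO embryo arrays detected 202 of them, or 65.6%, beside 75.2% of all genes. On all 8 arrays 143, or 46.4%, were detected, beside 60.8% of all genes, and on none 47, or 15.3%, beside 11.3%. Most neighbours of the 179 genes were thus detected outside KO embryos as well, or not at all.

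Of the 205 flanking genes that could be tested, 140, or 68.3%, were called higher in KO than in WT embryos in limma, beside the 44.3% of all genes tested, and 37 were called lower. Their median difference was 1.85 on the log2 scale, beside 0.15 over all genes tested. Whether these differ was not tested. Flanking genes share a neighbourhood with the 179, and 31 of the 179 overlap the span of another protein-coding gene or pseudogene. The RefSeq table gives no strand, so the strand of an overlap was not examined. Y39A3B.1, the brightest of the 12 genes on chromosome III, overlaps ckr-2, a receptor gene, and read 169 and 90.02 units in KO embryos, against 8.71 and 3.998 units in WT embryos.

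Of the 160 flanking genes with a symbol, 13 had the same pattern as the 179, or 8.13%, beside 1.94% of all genes with a symbol, and this difference was not tested. Besides 3 gtnt genes they were srh-146, srv-4, nhr-281, mltn-13, oac-35, srsx-36, srsx-37, clc-21, gur-3 and tba-8. Of the gtnt genes, gtnt-30 lies next to F49C12.4 and read 71.9 and 39.6 units in KO embryos, against 7.68 and 13.3 units in WT embryos. Next to C13A2.10, gtnt-5 read 67.5 and 38.9 units in KO embryos, against 3.42 and 8.57 units in WT embryos. Next to K06H6.1, gtnt-57 read 133 and 89.9 units in KO embryos, against 3.57 and 10.9 units in WT embryos. Each of the 3 was brighter on KO embryo array 1 than on array 2, and none was detected on any other array.

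The 224 genes with a symbol read a median of 66.7 and 49.2 units on the KO embryo arrays, close to the 62.0 and 42.0 units of the 179 genes.

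The 398 genes with a sequence name only that KO embryos and every adult array detected, but no WT embryo array, were chosen by the same flags in embryos and the opposite flags in adults. Their medians were 73.0 and 49.2 units in KO embryos, against 7.65 and 7.53 units in WT embryos. In adults they read 266 and 370 units in the KO, against 419 and 302 units in WT. The adult values follow from that choice, and the embryo medians were near the 62.0 and 42.0 units of the 179 genes in KO embryos, against 6.33 and 6.69 units in WT embryos.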

How the data were processed

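Per the file headers, the deposited intensity of each spot is the processed Cy3 signal, background-subtracted and detrended within its array, made with Agilent Feature Extraction (10.7.1.1 per the submitters' processing notes). The deposited value table holds log2 values, and 99.99% of these lay within 0.05 of the scaled signal centred on the WT arrays of the same stage. It was used for this check alone. Steps between the scan and that table are not given in the sources used here.

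Control spots and outlier spots (4 to 12 per array) were left out, spots of a probe averaged on the log2 scale, and the 75th percentile of the array subtracted. No spot was saturated. Of the 43603 probes, 31500 were named by sequence name and 3674 by transcript accession through RefSeq (WBcel235), and 8429 had no gene. The brightest probe over the 8 arrays stood for its gene. Genes whose symbol has another form than letters and a number (2) were left out of both kinds.

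All 8 arrays entered 1 model with a mean per group (limma 3.58.1, R 4.3.3, two-sided, adjusted p under 0.05 by Benjamini-Hochberg), with 4 residual and 2.17 prior degrees of freedom. A gene was tested where both arrays of KO or of WT embryos detected it. The procedure was also run on simulated data with 1 spread shared by all genes and far fewer changed genes than were called here. That run does not bear on calls for genes near the floor. Alternatives covered the probe, flag, scaling, background correction, leaving out each array and a replicate block. The normexp correction used the median spot signal, because a mean signal column was not among those used here.

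The genes, the lists of markers and the naming rule were chosen with earlier results of these data known. The rule named the 10 brightest, the 5 largest bounds, 5 genes on either side of the edge, the 3 longest runs, the 5 genes whose probes differed most, and seip-1. All runs after the longest held 2 genes each, and those described were taken in order of sequence name. Protein families, product names and sequences were not analysed here. Python 3.11.15 and matplotlib 3.10.9 drew the figures.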

Additional observations from a re-analysis of the deposited data

Results flagged for a closer look

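Probes without a gene also showed the pattern. Of 8429 such probes, 349, or 4.14%, were well above background on both KO embryo arrays and on no other array. The count was 88 for WT embryos alone, 8 for KO adults alone and 5 for WT adults alone. No gene, and so no sequence name, stands behind these probes here, and they entered none of the counts above.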

How the results depend on the processing

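The count of 179 genes was 277 when any probe of a gene could show the pattern, 71 with the weaker flag (14 of the 179 among them), and 185 to 293 when each array was left out in turn, with the highest value without KO embryo array 2. The 277 include all 179, since the alternative only adds genes. It stayed between 155 and 192 in the other settings tried. The 169 genes called higher were 45 of 179 with the normexp correction, beside 37.1% of all genes tested there. They were 132 to 172 under the other settings that kept both arrays of a group, beside 31.9% to 44.6% of all genes tested. A call that required detection in both groups could be made for no gene of the 179, since the rule allows none. The median difference of 2.56 was 1.51 with median scaling, 2.06 with quantile normalization and 0.10 with normexp, and 2.39 to 2.74 when an array was left out. The normexp offset of 50 adds more units than most of these genes read on the dimmer KO array, which by construction shrinks their differences. The count higher on KO embryo array 1 (157) was 123 to 152 in the 4 settings tried. The share over all detected genes is not given in those settings, so the size of the lean there cannot be judged. With the replicate number as a block 170 genes were called and the median difference was 2.56. Array numbers did not pair in embryos, where the deviations of same-numbered arrays correlated at 0.02. In adults these deviations correlated at -0.497, and the block still paired the adult arrays by number. Signal over background also limits these results, as 116 of the 179 genes read up to 50 units on the dimmer KO embryo array.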
